A study of Homo sapiens with 26 samples.

Results

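Pool CF3 is 1 of 10 guide RNA libraries with which RH4 cells were screened for myogenic differentiation, and most of its targets belong to the RNA polymerase machinery, Mediator or chromatin complexes. RH4 is an established alveolar rhabdomyosarcoma cell line, labelled as positive for the PAX3-FOXO1 fusion. All targets of the pool were taken other than the 7 control sets that every pool carries, which gave 106 genes with 1072 guides, out of 984 target measurements over the 10 pools. Both arms held the same infected, drug-selected cells, harvested at day 7, fixed, permeabilized and stained for myosin heavy chain (MYH), the motor protein of differentiated muscle. The arms were defined by the gate of the cell sorter, MYH high or MYH low. Each arm is 1 sample of genomic DNA, so a difference between the arms has no replicate check and no test. Each SD printed with a target is taken over its guides, which share that target and are not repeats of the sort. The cells came from 1 cell line, and the sources used here do not give the number of sorted cells or the gate settings.

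A gene is read here through its guides. A guide that directs knockout of a gene needed to hold cells undifferentiated is expected to be more frequent among MYH high cells, and a guide against a gene needed for MYH expression to be less frequent there. In rhabdomyosarcoma the muscle program is started but not completed, and PAX3-FOXO1, a fusion transcription factor that binds enhancers, is the driver of the alveolar type. Many targets of CF3 belong to the machinery through which such activators reach RNA polymerase II, or to complexes that open, mark or close chromatin. Others do not, among them the machinery of RNA polymerases I and III and condensin.

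The MYH high sample held 21819567 counts and the MYH low sample 98457308. Counting error on the log2 ratio of a guide was 0.013 at the median and at most 0.0898, below the SD over guides of every target. Reads are not independent molecules, since no molecular identifiers are described, so this error covers counting only.

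The control guides of CF3 stood apart from those of the other pools. Ratios are log2 ratios of CPM (counts scaled to a total of 1000000 per sample), MYH high over MYH low, centred on the median of all guides of the pool, and the value of a target or set is the median over its guides. The fusion sets were high, as in every pool. The guides against the PAX3 DNA-binding domain kept in the fusion had 30384 CPM in all in MYH high and 2694 CPM in MYH low, a log2 ratio of 3.60 (SD over guides 0.73, 10 of 10 above 0). The FOXO1 fusion guides had 28538 and 2886 CPM, a log2 ratio of 3.43 (SD 0.61, 11 of 11 above 0). Guides with no target in the genome, named neg, were however also high in CF3, at 1.30 (SD 0.46), where the other 9 pools ran from -0.11 to 0.07. Their share of all counts in MYH low was 0.733%, below the 0.919 to 4.10% of the other pools, while their 1.63% in MYH high lay within the 0.833 to 1.91% seen elsewhere.

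PCNA guides, against the sliding clamp of DNA replication, had 0.466% of the counts in MYH low and 0.996% in MYH high, the first below and the second above all other pools (0.527 to 0.975% and 0.539 to 0.957%). For the PAX3_non-fusion guides only the MYH high share of 1.84% lay outside the range of the other pools (0.868 to 1.26%), and their MYH low share of 1.04% lay inside it. MYOD1 guides had 1.57% in MYH high and 1.18% in MYH low. The 8 other pools that also carry 10 MYOD1 guides had 0.456 to 0.792% and 0.519 to 0.824%, both below CF3, and TF1, which carries 20, had 0.966 and 1.39%. The FOXO1_non-fusion guides likewise exceeded the other pools in both arms, at 2.06 and 1.54%. In MYH high, the shares of PCNA, PAX3_non-fusion, MYOD1 and FOXO1_non-fusion thus exceeded those of every other pool, and that of neg did not. In MYH low the raised sets did not share a pattern. None of the library targets reached the level of the raised control sets: the highest was at 0.32 and the lowest control set at 0.52. A ratio below therefore gives a target's place relative to the middle guide of CF3, not relative to guides without a target. Centred on neg, all 106 targets lay below 0, the highest at -0.97. The part of the raised controls in the values of the targets was not tested.

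**Figure D1:**
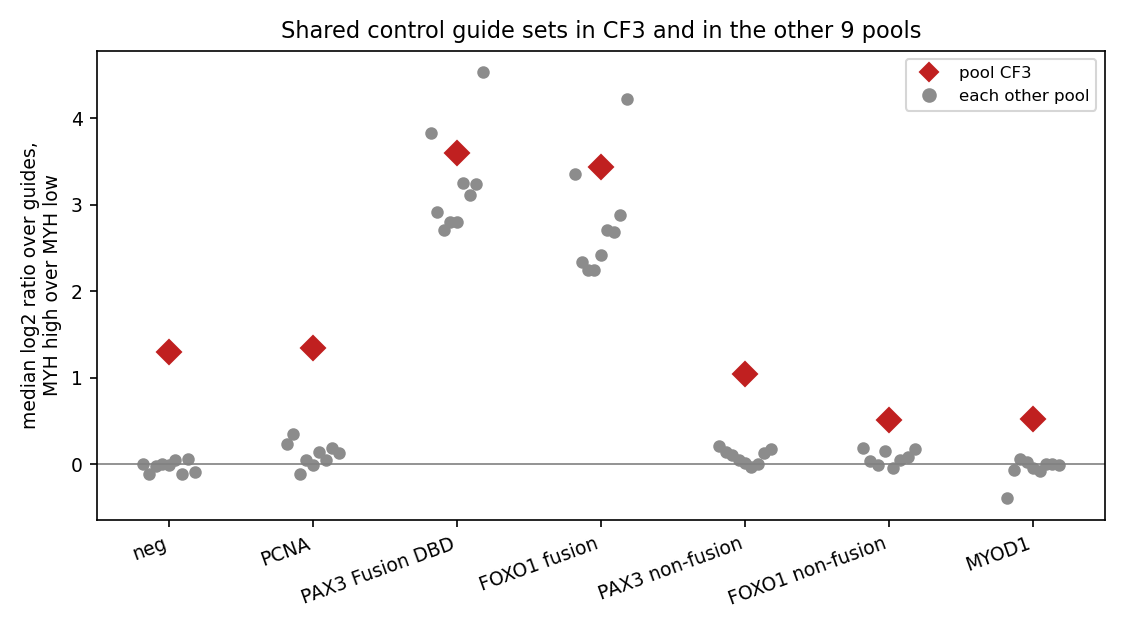
Median log2 ratio (MYH high over MYH low) for the 7 shared control sets (horizontal axis), centred on the median of all guides of each pool; the diamond is pool CF3 and each circle is 1 other pool. The neg, PCNA and PAX3_non-fusion guides sit at 1.30, 1.34 and 1.04 in CF3, above the circles of the other pools, and both fusion sets lie within the range of the other pools.

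Most of the 106 targets lay close to the middle of the pool. Their median was -0.02, with 59 (55.7%) below 0 and 47 (44.3%) above, and 54 lay between -0.1 and 0.1. With 1 sample per arm, a size limit of 0.3 on the log2 scale (1.23-fold) stands in for a call. It was passed upward by 2 targets (1.89% of the pool) and downward by 2 (1.89%), together 3.77%, against 1.48 and 0.569% of the 878 targets of the other 9 pools. TAF4 and MED20 lay below the limit, and RUVBL1 and SPTSSA above it. The last 3 lay at -0.31, 0.32 and 0.32, so close to the limit that a small shift of the centre moves them across it. Targets at or below -0.2 numbered 14 and those at or above 0.2 numbered 6. SDs over guides ran from 0.11 to 0.76, wider than the gaps between neighbouring targets, so the order within the 12 lowest or the 12 highest is not resolved.

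**Figure D2:**
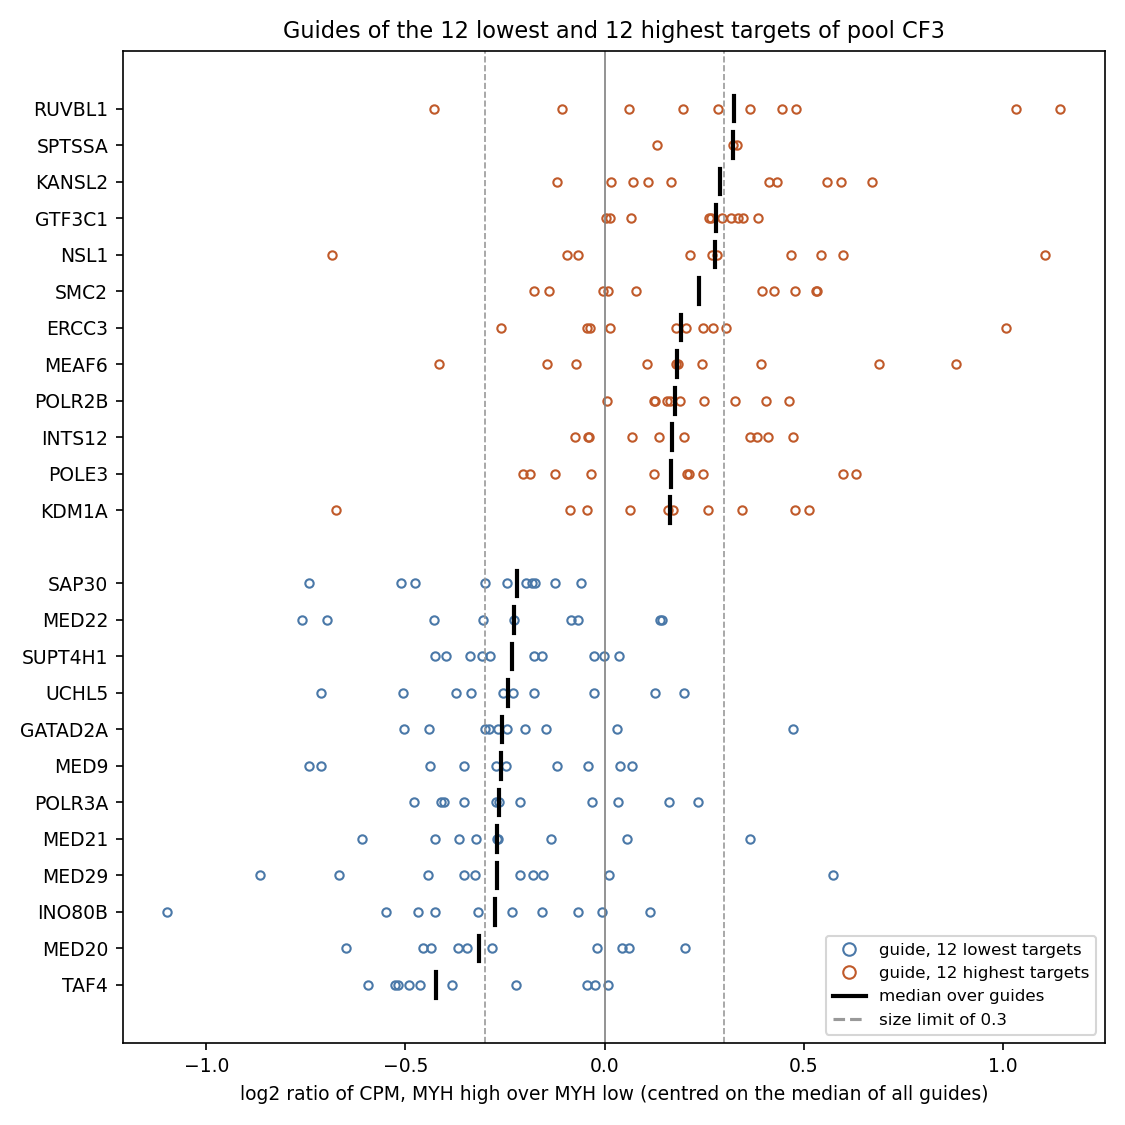
Log2 ratio (horizontal axis, MYH high over MYH low, CPM, centred on the median of all guides) of each guide of the 12 lowest and 12 highest targets of CF3; circles are guides, black bars medians and dashed lines the size limit of 0.3. TAF4 has 9 of 10 guides below 0 and SAP30 10 of 10, while RUVBL1 has guides from -0.43 to 1.14.

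TAF4 had the lowest ratio of the pool. It is a core subunit of TFIID, the complex that recognises promoters and starts assembly of the initiation complex. Its 10 guides summed to 6991 CPM in MYH high and 9340 CPM in MYH low. The median was -0.42 (SD 0.23), or 1.34-fold lower in MYH high, with guides from -0.59 to 0.01 and 9 of 10 below 0. Centred on neg it stood at -1.72. The other TFIID subunits did not share this level: TAF13 had -0.11 (SD 0.25), TAF10, which also sits in SAGA, 0.00 (SD 0.31), and TAF12, also a subunit of both, 0.04 (SD 0.24). The list of TFIID and TBP-associated factors had 4 members in the pool, with a median of -0.05 beside -0.02 for all targets. Of these, 1 (TAF4) was past the limit, which 1.89% of all targets passed downward.

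The general initiation factors lay around the middle of the pool. TFIIB (GTF2B), which bridges TBP and the polymerase, had -0.06 (SD 0.38), and GTF2F1 of TFIIF, which accompanies the polymerase to the promoter, -0.06 (SD 0.22). The TFIIA subunit GTF2A2, which steadies TBP on DNA, had -0.08 (SD 0.37). Subunits of TFIIH, the helicase and kinase complex that opens the promoter, fell on both sides. ERCC3, its DNA translocase, had 0.19 (SD 0.34, 7 of 10 guides above 0, 1 guide at 1.01), GTF2H3 0.13 (SD 0.32), GTF2H1 -0.01 (SD 0.33) and GTF2H4 -0.09 (SD 0.23). DR1, the NC2 subunit that blocks TFIIA and TFIIB at TBP, had 0.04 (SD 0.32). Of the 12 initiation factors of RNA polymerase II, 7 lay below 0 and 5 above, with a median of -0.03.

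Of the 15 groups into which the targets were sorted by role, after their values were seen, Mediator had the lowest median. It links activators bound at enhancers to RNA polymerase II, and is built of a head, a middle and a tail with a detachable kinase module. All 9 subunits in the pool lay below 0, against 55.7% of all targets, with a median of -0.23. Of 93 Mediator guides, 67 (72.0%) lay below 0, where 53.1% of all 1072 library guides did. Only MED20 passed the limit, which 1.89% of all targets passed downward, and 5 of the 9 were among the 12 lowest of the 106 targets. Counted over summed reads in place of the median, 8 of the 9 lay below 0.

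In the head, MED20 guides summed to 7549.5 CPM in MYH high and 9849.9 CPM in MYH low. Their median was -0.31 (SD 0.28), with guides from -0.65 to 0.20 and 7 of 10 below 0. MED22, the other head subunit, had -0.23 (SD 0.33, 7 of 9 below 0). The middle holds MED21, which pairs with MED7 at the hinge and had 5587 CPM in MYH high and 7253 CPM in MYH low, a median of -0.27 (SD 0.29, 7 of 9 below 0). MED9 had -0.26 (SD 0.29), MED4 -0.21 (SD 0.24) and MED31 -0.15 (SD 0.25). In the tail, MED29 had 9215 and 11919 CPM and a median of -0.27, with a wide range from -0.86 to 0.57 (SD 0.39). The lowest values were thus spread over head, middle and tail. MED25, a tail subunit that contacts activators, and MED12, which activates the kinase module, lay nearest to 0, at -0.04 (SD 0.21) and -0.02 (SD 0.15 over 15 guides).

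Most Mediator targets of the other cofactor pools, sorted separately, had medians below 0 as well. In CF1, 7 of 9 members of the Mediator list were below 0, with a median of -0.17 and the lowest for MED6 at -0.24. In CF2 it was 10 of 11, with a median of -0.12 and the lowest for MED26 at -0.37. The share of all targets below 0 was 55.1% in CF1 and 52.4% in CF2. The median of the neg guides was 0.07 in CF1 and -0.09 in CF2, unlike the 1.30 of CF3.

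**Figure D3:**
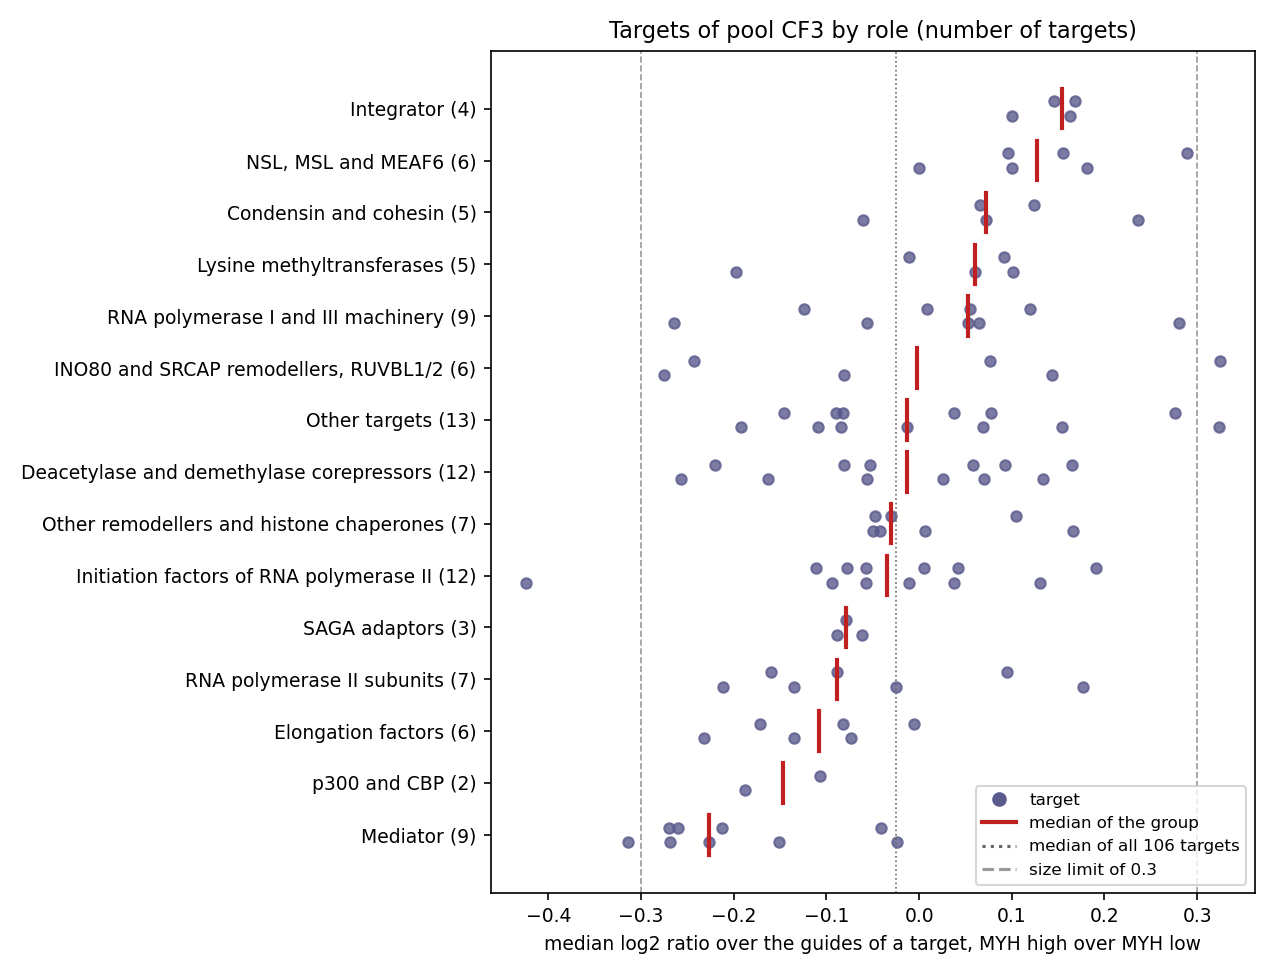
Median log2 ratio over guides (horizontal axis, MYH high over MYH low) of each of the 106 targets, grouped by role with the number of targets in brackets; red bars are group medians, the dotted line is the median of all targets and dashed lines the size limit of 0.3. Mediator lies lowest with a group median of -0.23 and no member above 0, and Integrator highest with 0.15 and no member below 0.

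RNA polymerase II subunits ranged from -0.21 to 0.18, with none past the limit and a median of -0.09. Of the subunits at both ends, POLR2B had all guides on 1 side of 0 and POLR2D all but 1. POLR2D, which forms the stalk with POLR2G, had 6703 CPM in MYH high and 8664 CPM in MYH low, a median of -0.21 (SD 0.32, 9 of 10 below 0) and its lowest guide at -0.95. POLR2B, the second largest subunit and part of the catalytic centre, had 3104 and 2924.5 CPM and a median of 0.18 (SD 0.14) with 10 of 10 guides above 0. POLR2C had 0.09 (SD 0.37) and the stalk partner POLR2G -0.02 (SD 0.34). POLR2E, POLR2F and POLR2H, which RNA polymerases I and III also contain, had -0.09 (SD 0.36), -0.16 (SD 0.33) and -0.14 (SD 0.28).

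Elongation factors lay below 0 throughout, at smaller size. All 6 were below 0, against 55.7% of all targets, with a median of -0.11. Of their 60 guides, 43 (71.7%) lay below 0, where 53.1% of all library guides did. SUPT4H1 and SUPT5H together form DSIF, which holds the polymerase on its template. SUPT4H1 had 8668 CPM in MYH high and 10904 CPM in MYH low, a median of -0.23 (SD 0.17) and 9 of 10 guides below 0. SUPT5H had -0.13 (SD 0.13), also with 9 of 10 below 0. PAF1 and CTR9, scaffold subunits of the PAF1 elongation complex, had -0.08 (SD 0.31) and -0.07 (SD 0.25). HTATSF1, a cofactor of elongation and splicing, had -0.17 (SD 0.30). NELFCD of the pausing factor NELF had -0.01 (SD 0.35), with 5 of 10 guides below 0, and lay at 0.02 when centred on library guides.

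The Integrator subunits stood on the other side. Integrator cleaves nascent RNA of paused polymerases and of small nuclear RNA genes. All 4 were above 0, against 44.3% of all targets, with a median of 0.15, and none passed the limit. Of their 39 guides, 27 (69.2%) lay above 0, where 46.8% of all library guides did. INTS12 had 0.17 (SD 0.21), INTS8 0.16 (SD 0.24), INTS13 0.15 (SD 0.32) and INTS6 0.10 (SD 0.33). Centred on neg, they lay below 0 like every target.

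The machinery of RNA polymerases I and III was divided. TFIIIC binds the promoters of transfer RNA genes. Its largest subunit GTF3C1 had 17383 CPM in MYH high and 16812 CPM in MYH low, a median of 0.28 (SD 0.14) and 10 of 10 guides above 0. GTF3C2 had 0.12 (SD 0.21) and GTF3C6 -0.12 (SD 0.29 over 8 guides). POLR3A, the catalytic subunit of RNA polymerase III, was among the 12 lowest, with 8153 and 10221 CPM and a median of -0.26 (SD 0.24, 8 of 11 below 0). The smaller subunits POLR3C and POLR3D had 0.01 (SD 0.35) and 0.05 (SD 0.54). Of RNA polymerase I, which makes ribosomal RNA, the catalytic subunits POLR1A and POLR1B had -0.06 (SD 0.27) and 0.06 (SD 0.18), and its promoter factor subunit TAF1B 0.05 (SD 0.27). Of the 9 genes, 6 lay above 0 and 3 below, with a median of 0.05.

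The acetyltransferases CREBBP and EP300 and the SAGA adaptors all lay below 0 at small size, with overlapping spreads. So did 55.7% of all targets. CREBBP and EP300 are paralogues that act at enhancers. CREBBP, with 30 guides the most densely covered gene, had 20211 CPM in MYH high and 23441 CPM in MYH low and a median of -0.19 (SD 0.41), with 21 guides below 0 and a range from -1.07 to 0.86. EP300 had -0.11 (SD 0.19, 7 of 10 below 0). Neither passed the limit. The SAGA adaptors lay within the SD over guides of EP300: TADA1 had -0.09 (SD 0.21), TADA3 -0.08 (SD 0.33) and TADA2B -0.06 (SD 0.30).

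Subunits of the NSL and MSL complexes, which direct the H4 acetyltransferase KAT8, lay above the middle. KANSL2 of NSL had 8063 CPM in MYH high and 7133 CPM in MYH low, a median of 0.29 (SD 0.28) and 9 of 10 guides above 0. MCRS1, a subunit shared by NSL and INO80, had 9182 and 7244 CPM and 10 of 10 guides above 0. Its median was 0.16 and its mean 0.38 (SD 0.47): 2 guides stood at 1.06 and 1.38, and 7 lay between 0.05 and 0.17. MSL1, MSL2 and MSL3 had 0.10 (SD 0.30), 0.10 (SD 0.42) and -0.00 (SD 0.27). MEAF6, a small subunit of several acetyltransferase complexes, had 0.18 (SD 0.38). Of these 6 genes, 5 lay above 0, against 44.3% of all targets, with a median of 0.13. Of their 60 guides, 43 (71.7%) lay above 0, where 46.8% of all library guides did.

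RUVBL1 had the highest ratio of the pool, at 0.325 beside 0.323 for SPTSSA, an order that is not resolved. Its paralogue RUVBL2 lay lower, but within the SD over guides of RUVBL1. Subunits of its partner complexes fell on both sides of 0. RUVBL1 and RUVBL2 are AAA+ ATPases that form a ring in the INO80, SRCAP and TIP60 complexes, which move histone variant H2A.Z or acetylate histones. RUVBL1 guides summed to 8656 CPM in MYH high and 7262 CPM in MYH low, with a median of 0.32 (SD 0.48), or 1.25-fold, and 8 of 10 guides above 0, and it stood at -0.97 centred on neg. The range from -0.43 to 1.14 was among the widest of the pool, and without the guide farthest from it the median was 0.29, below the limit. RUVBL2 had 0.14 (SD 0.22, 7 of 10 above 0). VPS72, the H2A.Z-binding subunit of SRCAP and TIP60, had 0.08 (SD 0.29). The 3 subunits of INO80 in this group apart from the ATPases lay below 0, while MCRS1, which INO80 also contains, lay at 0.16. INO80B had 13358 and 17880 CPM and a median of -0.28 (SD 0.35), with 9 of 10 guides below 0 and 1 guide at -1.10. UCHL5, a deubiquitinase that INO80 and the proteasome share, had -0.24 (SD 0.28, 8 of 10 below 0), and the actin-related ACTR5 -0.08 (SD 0.24). The 4 members of the NuA4/TIP60 list (RUVBL1, MEAF6, RUVBL2 and VPS72) were all above 0, against 44.3% of all targets, with a median of 0.16, and RUVBL1 alone was past the limit (1.89% of all targets upward). The 6 genes of the INO80 and SRCAP group had 3 members on each side and a median of -0.00.

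Among corepressors, the lowest were SAP30 and GATAD2A. SAP30, which stabilises the SIN3 deacetylase complex, had 10864 CPM in MYH high and 13845 CPM in MYH low. Its median was -0.22 (SD 0.21), and it was the single target with all guides below 0, from -0.74 to -0.06. GATAD2A, which joins the remodelling and deacetylase modules of NuRD, had 8698 and 10943 CPM and a median of -0.26 (SD 0.28, 8 of 10 below 0). Their partners had higher medians, though SIN3A and RBBP7 lay within the SD over guides of both SAP30 and GATAD2A. SIN3A, the scaffold of SAP30's complex, had -0.06 (SD 0.18) and PHF12 of the same family of complexes 0.13 (SD 0.22). HDAC2, the deacetylase of both SIN3 and NuRD, had 0.09 (SD 0.22), and the histone-binding RBBP7, common to both, -0.08 (SD 0.21). KDM1A, the LSD1 demethylase of CoREST, had 0.16 (SD 0.34). TLE3, a Groucho corepressor, had -0.16 over 15 guides (SD 0.26, 12 below 0). TRIM28, the corepressor of KRAB zinc finger proteins, had -0.05 (SD 0.29), and BCL11A, a NuRD-binding zinc finger protein, 0.06 (SD 0.29). HDAC8, which deacetylates cohesin, had 0.07 (SD 0.16). The 12 corepressors had 6 members on each side, with a median of -0.01.

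Condensin compacts mitotic chromosomes, and its subunits in the pool all lay above 0, as did 44.3% of all targets. SMC2, the ATPase shared by both condensins, had 5058 CPM in MYH high and 4911 CPM in MYH low, a median of 0.24 (SD 0.29) and 7 of 10 guides above 0. No SMC2 guide lay near that median: without the highest guide it was 0.08, and without the lowest 0.40. NCAPD2 had 0.12 (SD 0.32), NCAPG 0.07 (SD 0.20) and NCAPG2 0.07 (SD 0.23). SMC1A, the cohesin ATPase, had -0.06 (SD 0.31). The list of cohesin, condensin and CTCF, which also holds HDAC8, had 6 members with 5 above 0, a median of 0.07 and none past the limit.

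Other remodellers, histone chaperones and methyltransferases kept near 0 with few exceptions. CHD8 had 0.10 (SD 0.24), POLE3, a histone-fold subunit of CHRAC and DNA polymerase epsilon, 0.17 (SD 0.30), and ATRX and its partner DAXX, which deposit a variant of histone H3, both -0.05 (SD 0.26 and 0.31). The chaperones NASP, HJURP and NPM3 lay at -0.04 (SD 0.29), -0.03 (SD 0.16) and 0.01 (SD 0.13). Of the methyltransferases, PRDM6, a repressor of smooth muscle genes, was lowest, at -0.20 (SD 0.26) with 9 of 10 guides below 0. SMYD5 had 0.10 (SD 0.32), SETD5 0.09 (SD 0.26), KMT5A, which methylates histone H4, 0.06 (SD 0.27), and SETD1A -0.01 (SD 0.31).

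Of the targets outside these groups, CDK10, a cyclin M kinase, had -0.15 (SD 0.13) with 9 of 10 guides below 0. VGLL2, a TEAD cofactor of skeletal muscle, had -0.08 (SD 0.24), and MAX, the partner of MYC, -0.08 (SD 0.26). OGT, the O-GlcNAc transferase, had 0.15 (SD 0.24), and NSL1, a kinetochore protein, 0.28 (SD 0.48) with guides from -0.68 to 1.10. NAT10, DDX21 and ELP3, which modify or unwind RNA, had -0.11 (SD 0.18), -0.09 (SD 0.22) and -0.01 (SD 0.21). TIGD3 had 0.08 (SD 0.34), SS18L2 0.04 (SD 0.29), and the ribosomal protein gene RPL9 0.07 (SD 0.45 over 3 guides).

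SPTSSA, a subunit of serine palmitoyltransferase, which starts sphingolipid synthesis, was past the limit on 3 guides alone, at 0.13, 0.32 and 0.33. They summed to 11100 CPM in MYH high and 9796 CPM in MYH low, of which 1 guide, the most abundant of the pool, held 8299 and 7189 CPM. The guide names of 100 of the 106 targets are consecutive numbers, and SPTSSA is among the 6 for which they are not. The names of 2 of its guides and of 1 SS18L2 guide are given to BCL11A in pool CF1. There the same 3 names had ratios of -0.07, -0.06 and 0.02, so which gene the SPTSSA value measures is uncertain.

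A few guides decided how far median and mean parted. Of the 1072 guides, 10 lay at 1 or more from 0, 8 of them above and 2 below. The farthest was 1 guide of ZMYND8, a reader of acetylated histones, with 2906 CPM in MYH high and 635 CPM in MYH low, at 2.32. The next ZMYND8 guide was at 0.83 and the other 8 lay between -0.20 and 0.32, so the median was 0.03 and the mean 0.33 (SD 0.76). POLR3D had 1 guide at 1.50 and its next at 0.41. In MCRS1 and RUVBL1, by contrast, 2 guides each lay beyond 1. With the mean over guides 3 targets passed the limit on each side, MCRS1, RUVBL1 and ZMYND8 above and INO80B, SAP30 and TAF4 below.

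**Figure D4:**
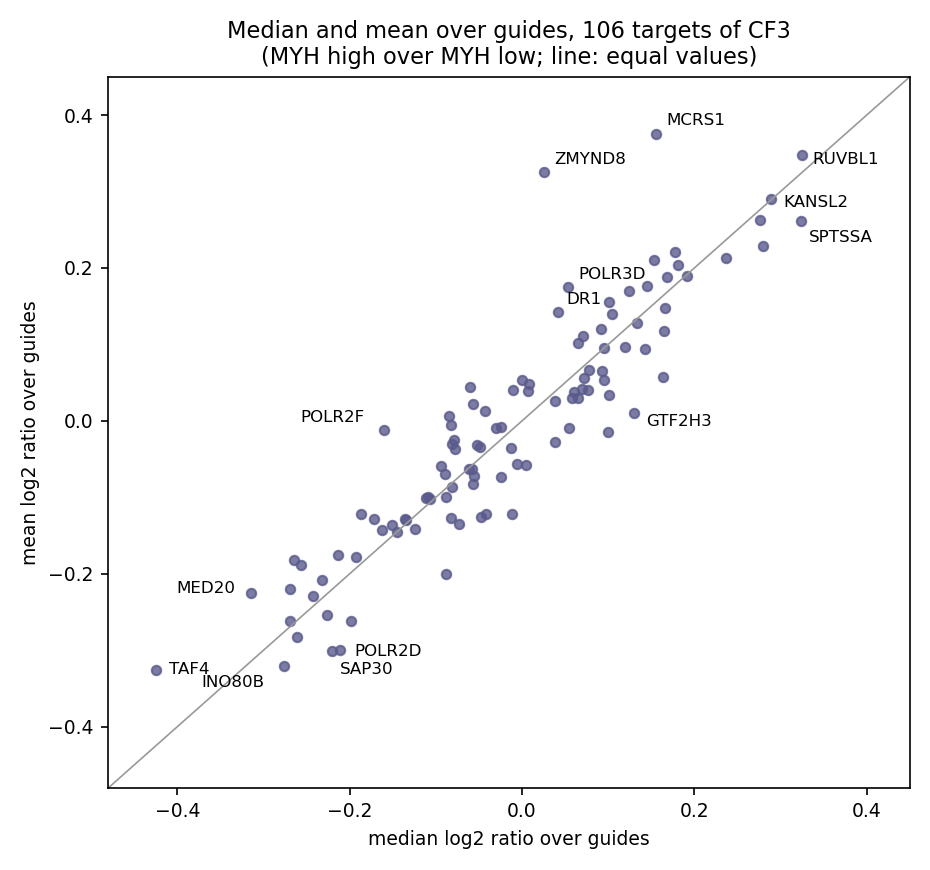
Mean log2 ratio over guides (vertical axis) against the median over guides (horizontal axis) for the 106 targets of CF3, each a point, with the line of equal values. ZMYND8 lies at a median of 0.03 and a mean of 0.33 and MCRS1 at 0.16 and 0.38, off the line, while TAF4 is lowest on both axes.

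Guides of 1 target differed more from each other in CF3 than in the cofactor pools most like it. The SD over library guides was 0.32 in CF3, 0.23 in CF2 and 0.20 in CF1, and the median SD within a target 0.28, 0.19 and 0.15. The share of guide variance that lay between targets was 14.3% in CF3, 28.0% in CF2 and 23.7% in CF1. The SD of target medians was 0.15 in CF3 and in CF2 and 0.11 in CF1. The MYH high samples of CF1 and CF2 held 124571531 and 130085483 counts, and the part of depth in this spread was not tested.

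Another library also carried 5 of the targets, with other guides and in another sort. MAX had -0.08 in CF3 and -0.06 (SD 0.11) in TF1. TADA2B had -0.06 in CF3 and -0.10 (SD 0.21) in TF3, and BCL11A 0.06 in CF3 and 0.02 (SD 0.14) in CF1. These 3 pairs lay within the SD over guides of each other. The CF1 value of BCL11A includes the 3 guides whose names CF3 gives to SPTSSA or SS18L2, and equals the ratio of 1 of them. CDK10 had -0.15 (SD 0.13) in CF3 and 0.06 (SD 0.06, 9 of 10 guides above 0) in KP2, on opposite sides of 0. POLR2D, at -0.21 in CF3, had guides at -0.03 and 0.12 in the exon scan library, which carries only 2.

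The authors' deposited table gives each target a model score, beta, with false discovery rates. Over the 106 targets beta ordered the genes as the mean over guides did (Spearman correlation 0.9999 across genes, which share both samples) and as the median did less closely (0.923). At 0.05 in the column named fdr, the authors' deposited table holds 5 targets with a negative score (4.72%) and 0 with a positive one (0%). The 5 are TAF4 (beta -0.225), INO80B (-0.220), SAP30 (-0.208), POLR2D (-0.206) and MED9 (-0.195), each listed in the authors' deposited table with a rate of 0. They are also the 5 targets with the lowest mean over guides. The highest score of a library target is that of MCRS1 (0.259), larger in size than those of the 5, yet it does not pass 0.05. Scores of like size were thus not treated alike upward and downward, and 5 against 0 is not a comparison of the directions. The part of the raised control sets in this was not tested, and they too are scored in the authors' deposited table. In its Wald column 0 targets pass 0.05, and the lowest rate there is 0.134, common to 10 targets. That column has no pass for the fusion guides either, at 0.649 for the PAX3 set and 0.614 for the FOXO1 set in the authors' deposited table. The fdr column gives 0 to the neg guides (beta 0.916), which have no target.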

How the data were processed

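Guide abundance was measured in genomic DNA of sorted cells, with 1 sample per arm. The deposited tables hold raw read counts per guide, per the file headers, and no normalization of them is stated. The authors' deposited gene table holds a model score (beta) and p-values with false discovery rates; the submitters' processing notes name FastQC and MAGeCK. Counts were scaled to CPM per sample, and a log2 ratio (MYH high over MYH low) was taken with a pseudocount of 1 CPM and centred on the median of all guides. Guides needed 10 counts over both arms, which removed 0, and targets 3 guides. With 1 sample per arm no test was made: a median 0.3 from 0 on the log2 scale was counted as past the size limit. The rule for named genes took the 12 lowest and 12 highest targets, the 3 members farthest from 0 of each gene list with at least 3 targets in the pool, every target that another library also carries, and the control sets; the remaining targets are named outside it, after their values were seen, to account for the members, and 1 target, kept in all counts, is not reported here. The members and gene lists were chosen with earlier results of these data known, and the role groups after the values were seen. All 106 symbols matched RefSeq gene names. The sources used here do not give guide sequences or genomic positions. The calculation was tested on simulated data. Alternatives covered the centring, edgeR TMM and DESeq2 size factors, the pseudocount, the count minimum, the summary over guides and the size limit, and 2 were added after seeing the data.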

Additional observations from a re-analysis of the deposited data

Results flagged for a closer look

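In 5 of the 7 control sets that all pools carry, the median log2 ratio (MYH high over MYH low) in CF3 lay apart from the other pools by Dixon's criterion. These were neg at 1.30, PCNA at 1.34, PAX3_non-fusion at 1.04 and MYOD1 at 0.52, each against 9 other pools (TF1 among them, with 20 MYOD1 guides), and FOXO1_non-fusion at 0.52 against 8. Chance sets about 1 in 20 such groups apart, and the 5 sets share the same pair of samples. Both fusion sets lay within the range of the other pools.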

How the results depend on the processing

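The 2 targets past the size limit upward and 2 downward were the count also with edgeR TMM or DESeq2 size factors, pseudocounts of 0.1 and 10 CPM, and no count minimum or one of 100. With the guides named BCL11A in CF1 left out, SPTSSA kept too few guides, and 1 target passed upward and 2 downward. Centring decided the direction. Centred on the neg guides, 0 targets passed upward and 106 downward, the median over targets was -1.32 and that of Mediator -1.52. There RUVBL1 and SPTSSA both had -0.97, PAX3_non-fusion -0.25, FOXO1_non-fusion -0.78 and MYOD1 -0.77, all opposite to the values reported. With no centring 0 passed upward and 17 downward, and Mediator had -0.35. Centred on library guides, or with summed counts, 5 passed upward and 1 downward. Without the farthest guide of each target, 3 passed upward (KANSL2, SMC2 and SPTSSA) and 3 downward (MED20, MED29 and TAF4). RUVBL1 was then inside the limit. A limit of 0.2 gave 6 and 14, a limit of 0.5 gave 0 and 0, and targets with 5 or more guides gave 1 upward. TAF4 had -0.29 with summed counts, inside the limit, and MED20 -0.29 centred on library guides. No paired analysis was possible because each arm holds 1 sample. The smallest count was 286, so counting error was small; how many cells stand behind the reads is unknown.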

Other observations

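The SD over guides was smaller where guides were more abundant. Among the 358 least abundant guides in MYH low the SD of the log2 ratio was 0.37 and the median 0.05. Among the 356 in the middle they were 0.32 and -0.04, and among the 358 most abundant 0.26 and -0.06. MYH low counts enter both the bins and the ratio, so the order of the medians is a description only.

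In 10 targets median and mean over guides had opposite signs, among them VGLL2, MSL1, TAF10 and TAF12.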
